A study of Mus musculus with 4 samples.

Results

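Iron and heme handling was examined across 10 genes in tumor-associated macrophages (TAMs) of mouse B16 melanoma. The genes were taken as a list of symbols matched to the Entrez identifiers of the expression tables, and all 10 were found among the 16739 genes with a value in any library. The list held heme oxygenase 1 (Hmox1), biliverdin reductase B (Blvrb), ferroportin (Slc40a1), the metal transporters Slc11a1 and Slc11a2, the transferrin receptor (Tfrc), the ferritin chains Fth1 and Ftl1, the ferritin receptor Ncoa4 and the iron sensor Ireb2.

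The RNA came from 4 libraries of C57BL/6 mice, 2 labelled WT and 2 labelled Trim24-deficient, the latter called deficient-labelled below. The mutant mice carried floxed Trim24 and LysM-Cre, a recombinase driven by the lysozyme 2 promoter and active in macrophages, monocytes and neutrophils. All mice received B16-F10 melanoma cells under the skin of the abdomen at 6 to 8 weeks of age. CD45+, CD11b+ and F4/80+ cells were sorted from the tumors after 16 days. The study states that WT littermates served as controls. The labels number 2 samples per group without saying how many mice each holds, so p-values measure the spread between these samples.

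Tissue macrophages take up hemoglobin and dying red cells, break down heme and hand the iron on. Hmox1 opens the heme ring and frees iron and biliverdin, ferritin stores the iron, and Slc40a1, the only known iron exporter of mammalian cells, releases it. Iron regulatory proteins, of which Ireb2 is one, bind a stem-loop called the iron-responsive element when iron is scarce. Bound in a 5′ UTR the protein blocks translation, and bound in a 3′ UTR it protects the transcript from decay. Macrophages that keep iron and macrophages that release it have both been described in tumors.

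The library totals lay between 4476122 and 5172407 expected counts, at which 3 counts equal 0.606 to 0.639 CPM, the normalized count used here (expected counts scaled with edgeR's TMM factors to one common library size). This floor covers counting error only. Trim24 itself had 28.8 and 10.2 expected counts in the WT libraries and 16.1 and 2 in the deficient-labelled libraries, so its ranges overlapped (log2 fold change -1.06 ± 0.82 SE, adjusted p = 0.635 by edgeR). A count over the whole gene also takes reads from exons that Cre does not remove. Xist lay at 6.46 to 10.9 CPM in WT and at 256 to 437 CPM in the deficient-labelled libraries, and the Y-linked Ddx3y, Eif2s3y, Uty and Kdm5d lay at 12.1 to 102 CPM in WT and at 0 to 0.616 CPM in the others. Genotype and sex therefore cannot be told apart in any difference below. Of the 8 macrophage markers all were present, and their sum was 15428 and 13031 CPM in WT and 17401 and 16447 CPM in the deficient-labelled libraries. Melanocyte markers were present although the sort was for CD45+ cells, with sums of 813 and 773 CPM in WT and 611 and 804 CPM in the deficient-labelled libraries. Of the 7 markers, 4 (Mlana, Dct, Tyrp1 and Mitf) were lower in both deficient-labelled libraries, as were 23.0% of all tested genes. Pmel, Tyr and Sox10 overlapped between groups. Summed markers of dendritic cells (33.7 to 75.8 CPM), T and NK cells (30.2 to 99.0 CPM) and B cells (46.3 to 55.4 CPM) were low. In bulk RNA, fewer cells of a type and less RNA per cell cannot be told apart.

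The iron-responsive elements are shown because they divide the genes by how iron acts on their transcripts. The UTRs of GENCODE M21 transcripts (GRCm38) were searched for a loop of CAGTG followed by A, C or T. The loop had to be held by a stem of 5 base pairs above a bulged C, with at least 4 of the 5 pairs formed. G opposite T counted as a pair. Of the 10 genes, 5 held such a site. Each 27-base window below is written 5′ to 3′ on the strand of the transcript, with the loop in capitals.
Fth1, 5′ UTR, exon 1, chr19:9982733-9982759 (+): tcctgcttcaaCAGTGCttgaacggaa
Ftl1, 5′ UTR, exon 1, chr7:45459780-45459806 (-): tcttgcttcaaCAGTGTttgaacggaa
Slc40a1, 5′ UTR, exon 1, chr1:45925466-45925492 (-): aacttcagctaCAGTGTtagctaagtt
Slc11a2, 3′ UTR, exon 16, chr15:100395154-100395180 (-): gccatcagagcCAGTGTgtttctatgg
Tfrc, 3′ UTR, exon 19, chr16:32631220-32631246 (+): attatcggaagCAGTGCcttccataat
Tfrc, 3′ UTR, exon 19, chr16:32631599-32631625 (+): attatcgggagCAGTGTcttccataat
Tfrc, 3′ UTR, exon 19, chr16:32631664-32631690 (+): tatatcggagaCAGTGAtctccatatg
Tfrc, 3′ UTR, exon 19, chr16:32631711-32631737 (+): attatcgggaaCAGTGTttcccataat

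The sites of the ferritin chains and of Slc40a1 had all 5 pairs. Tfrc held 4 sites, each with 5 pairs, and Slc11a2 had 1 site with 4 pairs. A site with at least 4 pairs was found in 3.53% of 16439 genes searched, and with 5 pairs in 0.523%. No match was found in the UTRs of Hmox1, Blvrb, Slc11a1, Ncoa4 or Ireb2. A match is a match of letters only, and the libraries measured RNA and not translation.

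The levels of the 10 genes spanned more than 3 orders of magnitude per length of transcript. In FPKM, the deposited value scaled to transcript length and library total, Ftl1 (chr7:45457944-45459886), the ferritin light chain, had 11966 and 12921 in WT and 10638 and 16339 in the deficient-labelled libraries. It ranked between 1 and 3 among all genes in every library. Fth1 (chr19:9980600-9985111), the heavy chain that oxidizes the iron to be stored, had 8369 and 7675 FPKM in WT and 6854 and 7765 FPKM in the others, and ranked 4 to 6. The pair took 1.67% to 2.30% of all expected counts of a library, against 0.184% to 0.268% for the other 8 genes together. The annotated ferritin pseudogenes (Ftl1-ps1, Ftl1-ps2, Ftl2-ps and Fth-ps2) were listed in none of the 4 libraries, and reads from such near-identical copies can be counted as Fth1 or Ftl1, so both levels are uncertain to that extent.

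Hmox1 came next in this order with a mean of 573 FPKM over the 4 libraries, followed by Blvrb with 338 FPKM and Slc11a1 with 300.1 FPKM. The ranges of these 3 overlapped, from 330.4 to 793 FPKM for Hmox1, 233 to 486 FPKM for Blvrb and 204 to 427 FPKM for Slc11a1. Within libraries, Hmox1 was above Blvrb in 3 of 4, and Blvrb was above Slc11a1 in 4 of 4, by a ratio of 1.08 to 1.15. Ncoa4 stood apart from its neighbours with 45.0 FPKM on average and a narrow range of 42.3 to 47.7 FPKM. Slc11a2 (18.1 to 19.1 FPKM), Slc40a1 (7.27 to 19.1 FPKM) and Tfrc (7.60 to 13.1 FPKM) overlapped in turn, with Slc11a2 above Slc40a1 in 4 of 4 libraries and Slc40a1 above Tfrc in 3 of 4 (ratio 0.948 to 1.45). Ireb2 was lowest at 4.23 to 6.64 FPKM.

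**Figure D1:**
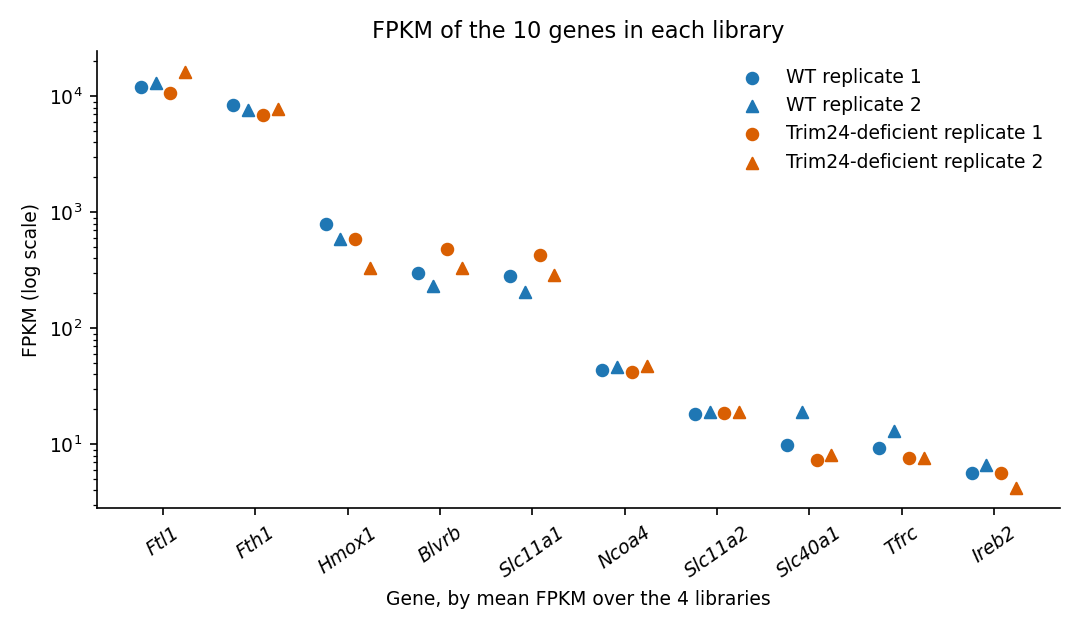
FPKM of the 10 genes in each of the 4 libraries, on a log axis, ordered by the mean over the libraries. Blue points are WT and orange points the deficient-labelled libraries, with circles for replicate 1 and triangles for replicate 2. Ftl1 and Fth1 lie at 6854 FPKM or above in every library, and Ireb2 lies at 6.64 FPKM or below.

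The comparison of genotype labels asked whether loss of Trim24 in myeloid cells goes with other transcript levels of these genes. None of the 10 was called by edgeR's quasi-likelihood test (fold change above 1.5 and false discovery rate below 0.05), in a table where 42 of 11302 tested genes, or 0.372%, were called, 33 of them (0.292%) higher and 9 (0.0796%) lower in the deficient-labelled libraries. All 10 genes passed the filter on low counts. At an unadjusted p under 0.05 there were 3, Blvrb, Slc11a1 and Slc40a1, against 12.2% of all tested genes. DESeq2 also called 0 of the 10, where it called 1.61% of the 10219 genes it adjusted. It put 3 of the 10 under an unadjusted p of 0.05, against 910 of 16692 genes. The limma test on log2(FPKM + 1) called 0 of the 10 and 0.207% of 11093 genes. It put 2 of the 10 under an unadjusted p of 0.05, against 1462 of 11093 genes. Leaving out a library leaves 1 in its group, so such fits hold no spread within that group. Over all genes, 66 and 25 were called without WT replicates 1 and 2, and 405 and 652 without deficient-labelled replicates 1 and 2. Of the 10, Blvrb and Slc11a1 were called without deficient-labelled replicate 2, and none when any other library was left out. The median log2 fold change was 0.08 over the 10 genes and -0.01 over all tested genes.

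By CPM, 4 of the 10 genes (Blvrb, Slc11a1, Slc11a2 and Ncoa4) were higher in both deficient-labelled libraries than in both WT libraries, a pattern found in 21.4% of all tested genes. Slc40a1 and Tfrc were lower in both, as were 23.0% of all tested genes. The groups overlapped for Hmox1, Fth1, Ftl1 and Ireb2. An exact two-sided permutation test of 2 libraries against 2 cannot go below p = 0.333, so the adjusted p-values depend on the spread pooled over genes in the edgeR model.

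**Figure D2:**
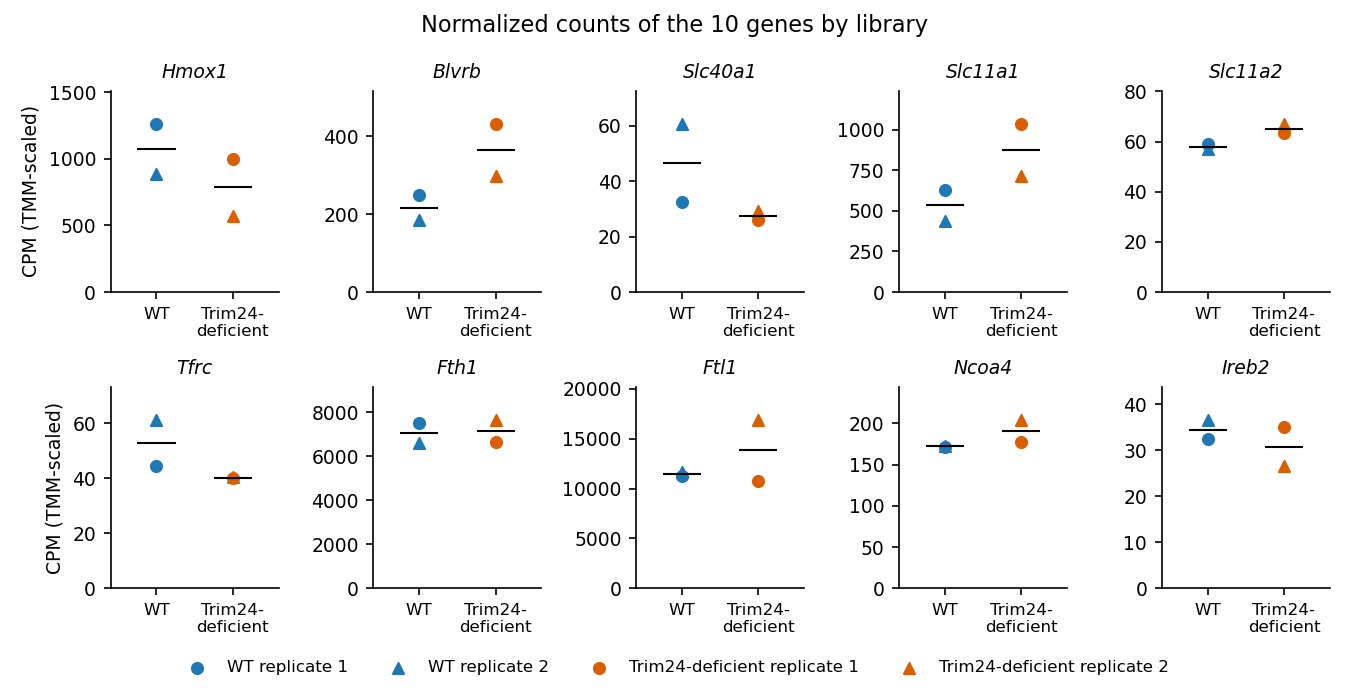
CPM after TMM scaling of each gene in each library, with a linear axis from 0 for each gene and a black bar at each group's mean. Blvrb and Slc11a1 are higher in both deficient-labelled libraries, Slc40a1 and Tfrc are lower in both with WT replicate 2 highest, and the groups of Hmox1, Fth1, Ftl1 and Ireb2 overlap.

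Among the genes of heme breakdown, Hmox1 (Entrez 15368, chr8:75093618-75100593, 5 exons) had 6237 and 4261 expected counts in WT and 4677 and 2789 in the deficient-labelled libraries. Scaled, this was 1259 and 888 CPM in WT and 996 and 573 CPM in the others. The highest and the lowest value came from opposite groups, but the higher deficient-labelled library exceeded the lower WT library. The log2 fold change was -0.45 ± 0.30 (SE, n = 2 and 2, edgeR, adjusted p = 0.57), with a 95% interval from -1.12 to 0.22 that includes a fold change of 0.46. It was -0.90 without deficient-labelled replicate 1 and -0.11 without replicate 2, and -0.16 and -0.68 without WT replicates 1 and 2, so its size depended on the libraries kept.

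Blvrb (Entrez 233016, chr7:27447978-27465981), which reduces biliverdin and flavins, had 1233 and 882 expected counts in WT and 2025 and 1455 in the deficient-labelled libraries. In CPM these were 249 and 184 against 431 and 299. Both deficient-labelled libraries were above both WT libraries. The fitted fold was 1.69 (95% interval of the fold 1.15 to 2.48, log2 fold change 0.75 ± 0.25 SE, edgeR adjusted p = 0.263), above the fold threshold and short of the false discovery rate. Its log2 fold change was 0.996 without deficient-labelled replicate 2 and 0.47 without replicate 1, with 1 library left in that group. Over the alternative fits that kept all 4 libraries, the edgeR, DESeq2 or limma adjusted p ranged from 0.011 to 0.531. The fitted log2 fold changes of Hmox1 and Blvrb thus lay on opposite sides of 0, with the 95% interval of Hmox1 including 0.

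Slc40a1 (Entrez 53945, chr1:45908070-45926532) exports ferrous iron across the plasma membrane. It had 161 and 291 expected counts in WT and 122 and 142 in the deficient-labelled libraries, or 32.5 and 60.6 CPM against 26.0 and 29.2 CPM. WT replicate 2 stood well above the other 3 libraries, which lay close together. The fitted fold was 0.593 (95% interval 0.377 to 0.932, log2 fold change -0.75 ± 0.29 SE, edgeR adjusted p = 0.342). Without WT replicate 2 the log2 fold change was -0.24, and without WT replicate 1 it was -1.12, neither of them called.

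Among the transporters that bring metal into the cytosol, Slc11a1 (Entrez 18173, chr1:74375014-74386057), the phagosomal transporter also known as Nramp1, had the most abundant transcript. Its protein and its transport of metal were not measured. It had 3124 and 2111 expected counts in WT and 4860 and 3472 in the deficient-labelled libraries, or 631 and 440 CPM against 1035 and 713 CPM. The groups did not overlap. The fitted fold was 1.63 (95% interval 1.08 to 2.47, log2 fold change 0.71 ± 0.26 SE, edgeR adjusted p = 0.326). Its log2 fold change was 0.95 without deficient-labelled replicate 2 and 0.42 without replicate 1, with 1 library left in that group. Over the alternative fits that kept all 4 libraries, the edgeR, DESeq2 or limma adjusted p ran from 0.0151 to 0.559. Slc11a1 and Blvrb took the same order of libraries, with deficient-labelled replicate 1 highest and WT replicate 2 lowest.

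Slc11a2 (Entrez 18174, chr15:100387898-100424209), the endosomal transporter DMT1, had 292 and 273 expected counts in WT and 297 and 326 in the others. The CPM values were 59.0 and 56.9 against 63.3 and 67.0. The groups parted narrowly in CPM and overlapped in FPKM, where the values were 18.1 and 19.1 against 18.6 and 19.0. The log2 fold change was 0.17 ± 0.18 (SE, edgeR adjusted p = 0.752), with a 95% interval from -0.24 to 0.58.

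Tfrc (Entrez 22042, chr16:32608896-32632794) takes up transferrin-bound iron. It had 221 and 293 expected counts in WT and 188 and 196 in the deficient-labelled libraries, or 44.6 and 61.0 CPM against 40.0 and 40.3 CPM. As for Slc40a1, WT replicate 2 was the highest library. The log2 fold change was -0.40 ± 0.22 (SE, 95% interval -0.88 to 0.09, edgeR adjusted p = 0.494) and shrank to -0.15 without WT replicate 2.

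None of the genes of iron storage and release was called, and their 95% intervals included 0. Fth1 (Entrez 14319) had 7535 and 6618 CPM in WT and 6641 and 7638 CPM in the deficient-labelled libraries, so the ranges nearly coincided. Its log2 fold change was 0.01 ± 0.24 (SE, 95% interval -0.52 to 0.55, edgeR adjusted p = 0.988). Ftl1 (Entrez 14325) had 11294 and 11682 CPM in WT and 10808 and 16851 CPM in the others. Deficient-labelled replicate 2 alone was high, and without it the log2 fold change of 0.27 ± 0.28 (SE, edgeR adjusted p = 0.745) became -0.09. Ncoa4 (Entrez 27057, chr14:32159879-32179855), which carries ferritin to the lysosome for iron release, had 172.0 and 172.3 CPM in WT and 178 and 204 CPM in the others. Its log2 fold change was 0.15 ± 0.19 (SE, edgeR adjusted p = 0.792). The groups parted in CPM and overlapped in FPKM, at 43.9 and 45.95 in WT and 42.3 and 47.7 in the others. Ireb2 (Entrez 64602, chr9:54862658-54912534) had 32.3 and 36.5 CPM in WT and 34.9 and 26.5 CPM in the others, with a log2 fold change of -0.16 ± 0.22 (SE, edgeR adjusted p = 0.813).

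**Figure D3:**
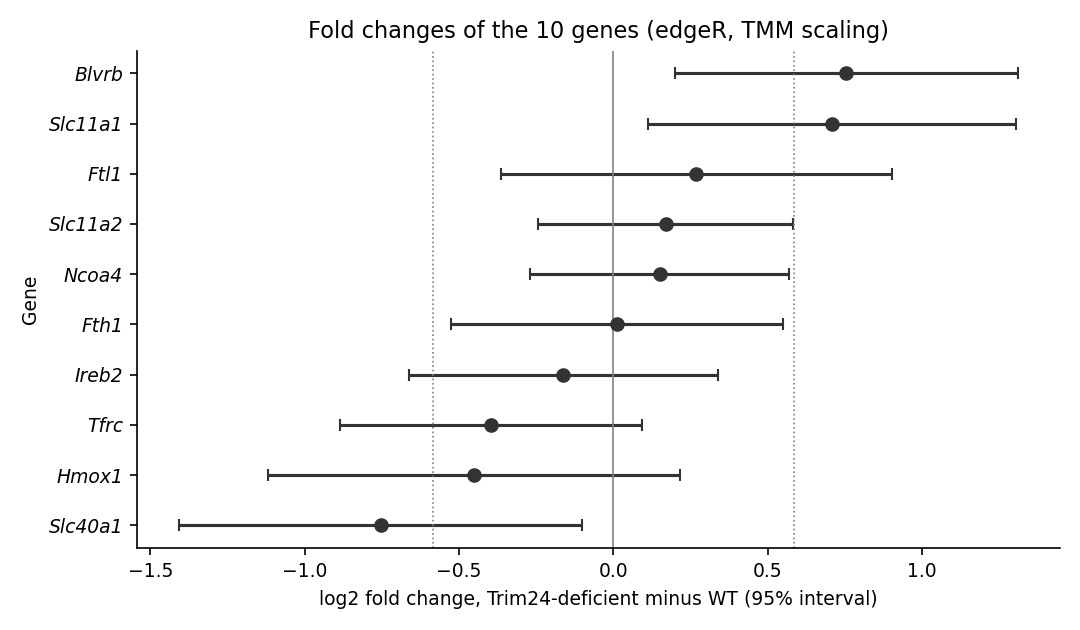
Log2 fold changes of the 10 genes with their 95% intervals, from edgeR with TMM scaling, as Trim24-deficient minus WT. The dotted lines mark a fold change of 1.5 in either direction. The intervals of Blvrb, Slc11a1 and Slc40a1 leave out 0 before adjustment over all genes, and those of the other 7 genes include it.

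Scaling by library totals in place of TMM moved the median log2 fold change of all tested genes from -0.01 to -0.15. Under that scaling the log2 fold change of Fth1 was -0.13 and that of Slc11a2 was 0.02. Blvrb (0.61), Slc11a1 (0.57), Slc40a1 (-0.91), Hmox1 (-0.59) and Tfrc (-0.55) kept their direction, and none of the 10 was called. Fth1 and Ncoa4, whose log2 fold change was -2.5e-05 under library totals, thus had no direction that held under both scalings. With the trend over gene length removed, the log2 fold changes of Ireb2, Ftl1 and Tfrc were -0.0045, 0.15 and -0.27.

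Grouped by the position of the iron-responsive element shown above, neither class of genes shared a direction. The 5′ UTR carriers had log2 fold changes of 0.01 (Fth1), 0.27 (Ftl1) and -0.75 (Slc40a1), and the 3′ UTR carriers had 0.17 (Slc11a2) and -0.40 (Tfrc). Within each class the values thus lay on both sides of 0, and none was called.

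Ratios within a library are free of the scaling between libraries. The Fth1 to Ftl1 ratio of FPKM was 0.699 and 0.594 in WT and 0.644 and 0.475 in the deficient-labelled libraries, so the groups overlapped (exact two-sided permutation p = 0.667). Slc40a1 to Tfrc, export over uptake, was 1.06 and 1.45 in WT and 0.948 and 1.06 in the others, with the nearest libraries of the 2 groups almost equal (exact permutation p = 0.333, the smallest possible). Hmox1 to its constitutive relative Hmox2 was 4.53 and 3.35 in WT and 3.20 and 1.56 in the others (exact permutation p = 0.333), without overlap. Slc11a1 to Slc11a2 was 15.5 and 10.7 in WT and 23.0 and 15.3 in the others, with overlap (exact permutation p = 0.667). The log2 differences were -0.22, -0.31, -0.80 and 0.54 in this order, and with 2 libraries a group none of them could pass a threshold of 0.05.

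**Figure D4:**
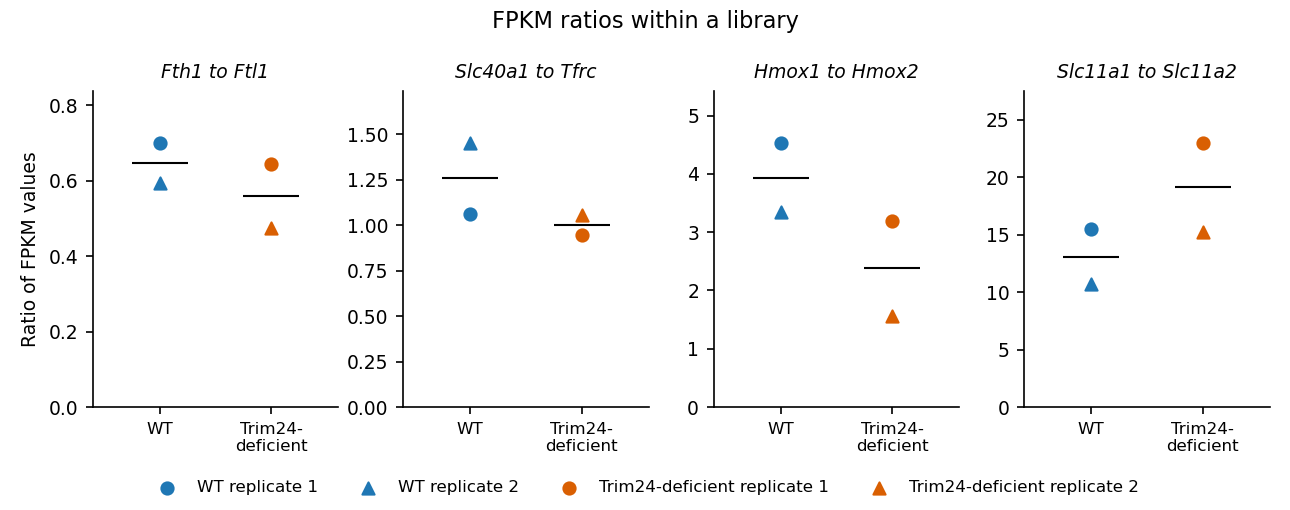
Ratios of FPKM values within each library for 4 pairs of genes, with linear axes from 0 and a black bar at each group's mean. The Hmox1 to Hmox2 ratio is lowest in deficient-labelled replicate 2 (1.56) and highest in WT replicate 1 (4.53), and the groups overlap for Fth1 to Ftl1 and for Slc11a1 to Slc11a2.

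Markers of other cell types stood at unequal levels in the 4 libraries. The erythroid list is of interest here because red cells carry heme, and 8 of its 10 genes had a value. Their summed level was 97.7 and 241 CPM in WT and 11.5 and 109 CPM in the deficient-labelled libraries. Most of it was globin (Hba-a1, Hba-a2, Hbb-bs and Hbb-bt), at 440 and 1102 expected counts in WT and at 38.0 and 505 in the others. Of the 5 erythroid genes tested, 4 (Hba-a2, Hbb-bs, Hbb-bt and Epor) were lower in both deficient-labelled libraries, 3 had an unadjusted p under 0.05 and 0 were called by edgeR. Over all tested genes, 23.0% were lower in both and 12.2% had an unadjusted p under 0.05. Slc4a1 was at 0 in every library. WT replicate 2, the library richest in globin, was also the highest in Slc40a1 and Tfrc. Deficient-labelled replicate 1, the poorest in globin, was the lowest in Slc40a1, while Tfrc had nearly the same CPM in both deficient-labelled libraries. Deficient-labelled replicate 2 had more globin than WT replicate 1 (104 against 88.8 CPM) but less Slc40a1 (29.2 against 32.5 CPM). Hmox1 was highest in WT replicate 1 (1259 CPM) and lower in WT replicate 2 (888 CPM). Monocyte markers summed to 568 and 732 CPM in WT and to 1765 and 1212 CPM in the deficient-labelled libraries. Of the 6 monocyte genes, 5 did not overlap between groups, all higher in the latter, a pattern found in 21.4% of all tested genes. Deficient-labelled replicate 1 was highest in the monocyte sum and in Blvrb and Slc11a1. It was also highest in the macrophage sum, whose largest part was Lyz2, the gene whose promoter drives LysM-Cre. Lyz2 had 5212 and 3504 CPM in WT and 7132 and 5346 CPM in the deficient-labelled libraries. Of the macrophage markers, Lyz2, Itgam and Ptprc were highest in deficient-labelled replicate 1. Mrc1 (664 CPM) and Cd68 (1541 CPM) were lowest in it, and Adgre1, Csf1r and C1qa were highest in other libraries. Neutrophil markers summed to 176 and 206 CPM in WT and 271 and 409 CPM in the others. Of the 4 tested, 3 were higher in both deficient-labelled libraries and at an unadjusted p under 0.05, and 0 were called by edgeR. Over all tested genes these shares were 21.4% and 12.2%. Mpo and Elane were at 0, and Ly6g was at 0, 0, 9.41 and 4.47 expected counts. The part of these cells in the values of the 10 genes was not tested.

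A wider list of 52 other genes of iron and heme handling was set beside the 10. Of these, 42 passed the filter on low counts, 1 was called higher and 0 lower, against 0.292% and 0.0796% of all tested genes, and 10 had an unadjusted p under 0.05, against 12.2% of all. The median log2 fold change of the 42 was 0.04, against -0.01 over all tested genes. In CPM, 9 of the 42 were higher in both deficient-labelled libraries and 8 were lower in both, near the 21.4% and 23.0% of all tested genes. Hamp and Ftmt had no value in any library, and Hpx, Flvcr2, Heph, Tfr2, Steap1, Steap2, Steap4 and Slc22a17 were below the filter.

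The gene called was Hp, haptoglobin, which binds free hemoglobin for uptake by macrophages. It had 34 and 37 expected counts in WT and 106 and 152 in the deficient-labelled libraries, or 6.87 and 7.71 CPM against 22.6 and 31.2 CPM. It rose by a log2 fold change of 1.88 ± 0.29 (SE, edgeR adjusted p = 0.0368). It was not called without WT replicate 1 (adjusted p = 0.0827) or without WT replicate 2 (adjusted p = 0.121), nor with library totals in place of TMM (adjusted p = 0.0737), and over its 15 alternatives the edgeR, DESeq2 or limma adjusted p ranged from 2.45e-07 to 0.336. The neutrophil and monocyte sums given above were higher in the same 2 libraries, and the part of these cells in the values of Hp was not tested. The 6 tested genes of heme and hemoglobin uptake and transport also included Lrp1, a receptor for heme bound to hemopexin, at 764 and 1126 CPM in WT and 699 and 630 CPM in the others (log2 fold change -0.51, edgeR adjusted p = 0.43, and -0.098 once the trend with gene length was removed), and the lysosomal heme transporter Slc48a1 at 192 to 229 CPM (log2 fold change -0.20, adjusted p = 0.703).

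In heme breakdown, Hmox2 (203 to 280.1 CPM, log2 fold change 0.32) and Blvra (149 to 237 CPM, log2 fold change 0.33) were tested and not called. Ceruloplasmin (Cp), the ferroxidase that works with Slc40a1, was the tested gene of iron export besides it, with 18.6 and 17.3 CPM in WT and 45.6 and 23.8 CPM in the others (log2 fold change 0.95 ± 0.31 SE, edgeR adjusted p = 0.26). Of 5 iron import genes tested none was called. Transferrin (Trf) had 233 and 215 CPM in WT and 259 and 600.2 CPM in the others (log2 fold change 0.94), the last value standing alone. Lcn2, lipocalin 2, which binds iron-loaded siderophores and is stored in neutrophil granules, had 5 and 4 expected counts in WT and 18 and 87 in the others, a log2 fold change of 3.52 ± 0.78 (SE, edgeR adjusted p = 0.123). It was 4.24 without deficient-labelled replicate 1 and 2.03 without replicate 2. DESeq2 called it (adjusted p = 0.00569), and over its alternatives the adjusted p ranged from 4.87e-06 to 0.491. The zinc and iron importer Slc39a8 (log2 fold change -1.04, edgeR adjusted p = 0.273) was lower in both deficient-labelled libraries, and the ferrireductase Steap3 (log2 fold change 0.06) overlapped.

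The iron chaperone Pcbp2 had 119.5 and 105 CPM in WT and 79.4 and 77.5 CPM in the others (log2 fold change -0.52, edgeR adjusted p = 0.29), while its relative Pcbp1 overlapped (log2 fold change 0.02). Among 5 sensing and transcription genes, Fbxl5, the ubiquitin ligase subunit that removes Ireb2 protein when iron is plentiful, had 90.5 and 69.4 CPM in WT and 132.5 and 132.1 CPM in the others (log2 fold change 0.73 ± 0.20 SE, edgeR adjusted p = 0.196). The heme-sensing repressor Bach1 (log2 fold change -0.14) and the activator Nfe2l2 (log2 fold change 0.07), which compete at the Hmox1 enhancers, overlapped between groups. Of 13 mitochondrial iron and iron-sulfur genes none was called. Slc25a28, mitoferrin 2, had the smallest p of them (log2 fold change -0.94, edgeR adjusted p = 0.371), followed by Glrx5 (log2 fold change -0.84), and the scaffold Iscu (log2 fold change 0.14) and Isca1 (log2 fold change 0.20) had the highest mean CPM, which is not scaled to length. In heme synthesis (8 tested), Alas1, the rate-limiting enzyme outside the red cell lineage, had 74.3 and 75.6 CPM in WT and 114 and 146 CPM in the others (log2 fold change 0.79 ± 0.20 SE, edgeR adjusted p = 0.157). Cpox, a later enzyme, had 14.1 and 26.3 CPM against 9.37 and 9.04 CPM (log2 fold change -1.13, adjusted p = 0.231). Leaving out a deficient-labelled replicate left 1 library in that group. Without replicates 1 and 2 so labelled, the log2 fold change was 1.42 and 0.21 for Trf and 0.97 and 0.61 for Alas1. In the same order it was 0.41 and 1.35 for Cp, -0.66 and -1.56 for Slc39a8, and 0.73 in both for Fbxl5. The hemoglobin receptor Cd163 had 23.0 and 17.9 CPM in WT and 7.88 and 35.8 CPM in the others (log2 fold change 0.09 over the 4 libraries). Steap4 had 1 and 5 expected counts in WT and 3 and 36 in the others.

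**Figure D5:**
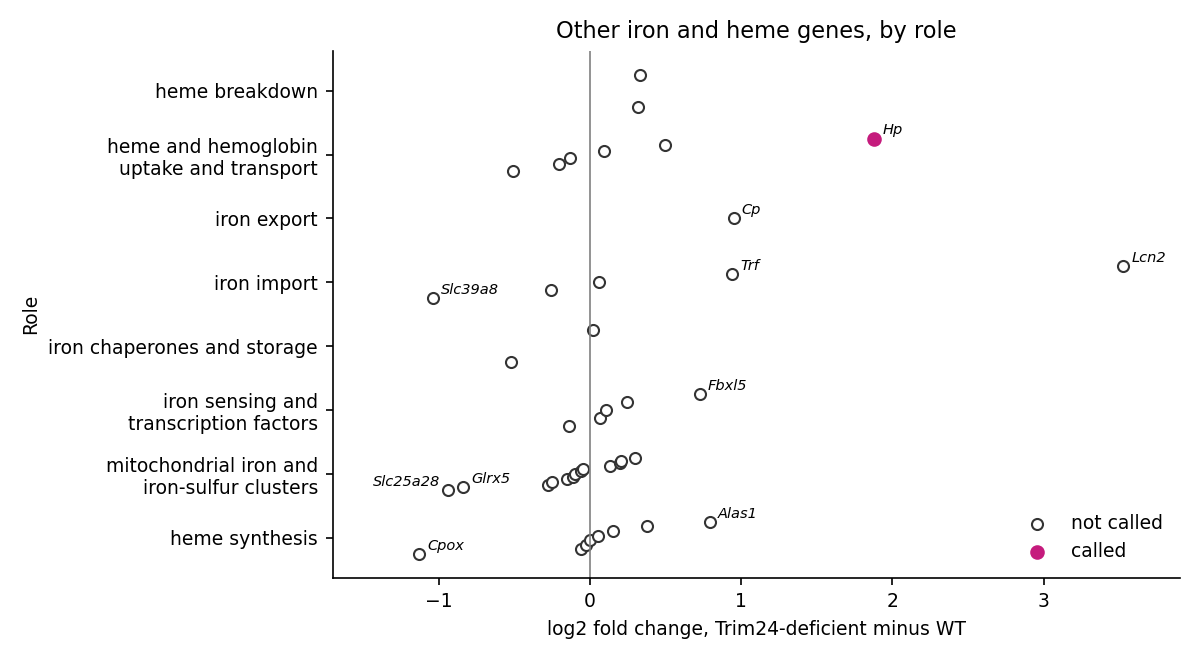
Log2 fold changes (Trim24-deficient minus WT, edgeR) of the 42 tested genes of the wider list, in rows by role. The filled point is Hp, the gene called (1.88), open points were not called, and genes beyond 0.7 in either direction are named.

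Genes with the pattern over the 4 libraries most like that of Hmox1, Slc40a1 and Tfrc were sought by the root mean square difference of log2 CPM, centred on each gene's mean, over 9132 other genes that averaged 3 or more in log2 CPM. Nearest to Hmox1 were Eif5a2 (0.0365), Ybx1 (0.0657) and E130309D02Rik (0.0711). Nearest to Slc40a1 were Atxn1 (0.0419), Zfp446 (0.0457) and Dtx4 (0.0471), and nearest to Tfrc were Uhrf1bp1l (0.0118), Fam53b (0.0187) and Uvssa (0.022). None of these 9 was on the iron and heme lists. With 4 libraries such likeness is a description, and the libraries share depth and composition.

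The RefSeq windows from 250 bases before to 50 bases after a transcript start (GRCm38.p6) covered 7 of the 10 genes in 12 windows, and Hmox1, Slc40a1 and Slc11a2 had no entry. They were searched on both strands for the antioxidant response element bound by Nfe2l2 and blocked by Bach1, as TGACNNNGC or TGAGNNNGC, for the PU.1 core GAGGAA, and for the Stat6 site TTCNNNNGAA, since the study concerns Stat6. The antioxidant letters were found in 3 of the 12 windows, each of another gene, and in 27.8% of 32851 windows of all genes. The PU.1 letters were in 2 of the 12 (Slc11a1 and Ireb2) and in 28.3% of all, and the Stat6 letters in 1 of the 12 and in 6.95% of all. The matches of the antioxidant and Stat6 letters are shown with 9 bases on each side, the match in capitals, on the strand of the gene.
Blvrb, Stat6 letters, chr7:27447823-27447850 (+): cccactcccTTCCCTAGAAggggcgtgg
Blvrb, antioxidant letters, reverse strand, chr7:27447900-27447926 (+): gactcctccGCCTACTCAtgctctttc
Slc11a1, antioxidant letters, chr1:74375142-74375168 (+): gtgaaattgTGAGCATGCcctcagtga
Ncoa4, antioxidant letters, chr14:32165736-32165762 (+): ggcggggcgTGACCTGGCcggtagggt

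The antioxidant matches began 69 (Blvrb), 52 (Slc11a1) and 44 (Ncoa4) bases before the start, and the Stat6 match of Blvrb began 146 bases before it. Blvrb and Slc11a1, which had the same order of libraries, each held the antioxidant letters, as did Ncoa4, whose level differed little. At the share of all windows given above, these matches describe the letters and say nothing of binding.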

How the data were processed

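RNA sequencing of sorted TAMs from 2 WT libraries and 2 libraries labelled Trim24-deficient was analysed. Per the labels and the study's methods, Bowtie was used for mapping to GRCm38/mm10 and RSEM for quantification, with versions not given in the sources used here. The expected count of each gene was deposited by the authors without normalization, and 77.1% of the values above 0 are whole numbers. The deposited FPKM values are relative to gene length and library total. Deposited gene lengths entered a length correction and the ratios. Samples were grouped by genotype label. A gene missing from a table was taken as 0.

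After rounding of the expected counts, genes were filtered (filterByExpr) and libraries scaled by TMM in edgeR 4.0.16 (R 4.3.3). The quasi-likelihood test was run on 11302 genes, with Benjamini-Hochberg adjustment over all of them. A call needed a false discovery rate below 0.05 and a fold change above 1.5. The standard error of a log2 fold change was derived from it and the F statistic. Library totals of 4476122 to 5172407 set the precision. The alternatives were a replicate block, DESeq2 1.42.0, other scalings and filters, removal of a length trend, leaving out each library, and limma 3.58.1 on log2 FPKM with a pseudocount of 1 or 0.1, for genes that reached an FPKM of 1 in 2 libraries or for all genes. Ratios were compared by exact permutation.

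The 10 genes, the wider list and the marker lists (macrophage, monocyte, neutrophil, dendritic cell, T and NK cell, B cell, erythroid, melanocyte) were chosen with earlier results of these data known. All 10 genes are named. Of the wider list, called genes are named, and for each role the 2 with the highest mean CPM and the 2 with the smallest p. For Hmox1, Slc40a1 and Tfrc the 3 nearest genes are named. The values of a further gene of the wider list and of a monocyte marker are not reported here. Cd163, Steap4 and the genes below the filter were named after their values were seen. The scripts were tested on simulated data. Coordinates come from RefSeq (GRCm38.p6) and GENCODE M21.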

Additional observations from a re-analysis of the deposited data

How the results depend on the processing

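Of 11302 genes tested, 42 were called, against 165 by DESeq2, 23 and 20 by limma with pseudocounts of 1 and 0.1, and 0 by limma for all genes (1636 at an unadjusted p under 0.05). Leaving out a library gave 25 to 652 calls. The replicate numbers are shared by the groups, but nothing states that they pair mice, and the deviations of same-numbered libraries correlated at 0.166. With the replicate block 634 genes were called, 2 of the 10 genes (Blvrb and Slc11a1) and 8 of the wider list. The block together with removal of the length trend gave 425 genes, 1 of the 10 (Slc11a1) and 5 of the wider list. Among the 10 genes 0 to 2 were called when a library was left out. The wider list gave 1 call, 2 by DESeq2 (Hp and Lcn2) and 0 to 6 when a library was left out. It gave 0 with library totals, upper-quartile scaling, and limma with either pseudocount or for all genes, where 12, 11, 10, 10 and 10 of its genes had an unadjusted p under 0.05. In the same order, 1717 and 1434 of 11302, 1462 and 1434 of 11093, and 1636 of 16739 genes tested were under it. Log2 fold changes near 0 changed sign. With library totals these were Fth1 (-0.13), Ncoa4 (-2.5e-05), Steap3 (-0.094), Pcbp1 (-0.12), Nfe2l2 (-0.085) and Iscu (-0.012). With upper-quartile scaling they were Fth1 (-0.044), Steap3 (-0.00029) and Pcbp1 (-0.033). With limma, at pseudocounts of 1 and 0.1, they were Fth1 (-0.14 in both), Steap3 (-0.11 and -0.12), Pcbp1 (-0.15 in both), Nfe2l2 (-0.12 and -0.13) and Iscu (-0.051 and -0.052), and the fit for all genes gave the values at 1. Without the length trend they were Fth1 (-0.090), Pcbp1 (-0.036) and Bach1 (0.014), and with the block as well Fth1 (-0.089), Pcbp1 (-0.071) and Iscu (-0.0043). The block alone gave Pcbp1 -0.0046. Leaving out a library in turn, the values ran from -0.090 to 0.13 for Fth1, -0.086 to 0.56 for Ftl1, -0.37 to 0.025 for Ireb2, -0.28 to 0.33 for Steap3, -0.35 to 0.32 for Pcbp1, -0.031 to 0.19 for Nfe2l2, -0.52 to 0.17 for Bach1, -0.29 to 0.47 for Iscu and -0.0080 to 0.45 for Isca1. The 10 genes' values kept their sign in 138 of 150 other fits, and the cause of the sign changes was not tested. The log2 difference of the Fth1 to Ftl1 ratio went from -0.22 to -0.0006 without deficient-labelled replicate 2, and that of Slc40a1 to Tfrc from -0.31 to -0.088 without WT replicate 2. The depth limits Lcn2 and other genes of few counts.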
